A study of Homo sapiens with 24 samples.

Results

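The transcripts of 39 human genes that act at the start of S phase, the G1/S and DNA replication genes, were followed over 24 arrays of the ovarian cancer line A2780. The genes were chosen by name, and all 39 were present among the 11940 genes measured. Each was represented by the probe set with the highest mean over the 24 arrays. They fall into 6 roles: licensing of origins (ORC1, ORC6, CDC6, CDT1 and MCM2 to MCM7), helicase activation (MCM10, CDC45, GINS1, GINS2 and GINS4), the synthesis machinery (POLA2, POLE2, PRIM1, PCNA, RFC2 to RFC5, FEN1, LIG1, RPA2 and RPA3), nucleotide supply and uracil removal (RRM1, RRM2, TYMS, TK1 and UNG), chromatin assembly and histone mRNA (CHAF1A, CHAF1B and SLBP), and G1/S control (CCNE1, CCNE2, E2F1 and CDC25A).

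Of the 24 Affymetrix HT-HG_U133A Early Access arrays, 12 carried RNA of A2780 cells transfected with pcDNA, the empty vector, and 12 carried RNA of A2780 cells transfected with Rab25, a small GTPase of vesicle recycling. Each line was represented by 4 arrays of cells starved of serum for 8 h and by 2 arrays each of starved cells given FBS (fetal bovine serum, at 5%), TGF beta at 5 ng/ml, or EGF or IGF, each at 10 ng/ml. Every group was divided evenly between experiment 1 and experiment 2, with 12 arrays in each. By the treatment protocol cells were exposed for 8 h in the first experiment but for 24 h in the second, whereas the source names give 24 h for both, and neither says how long the starved cells were kept. Exposure time and experiment therefore cannot be told apart. The series describes the samples as independent without saying that they came from separate cultures, and nothing says how many clones each transfected line holds, so p values measure the spread between these arrays.

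Replication is prepared in G1, when ORC, CDC6 and CDT1 load the MCM helicase onto origins, and it starts in S phase, when CDC45 and the GINS complex join the helicase and polymerases, the PCNA clamp and its RFC loader begin synthesis. Most of these genes are transcribed in late G1 and S phase by E2F factors, which are released when cyclin E and cyclin D kinases phosphorylate the RB family. Serum withdrawal holds many cultured cells before this step, and its return lets them pass it, although tumour lines differ in how far they depend on it.

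Promoter sequence is shown because the genes moved together over the arrays described below. The 150 bases before the start are given for the 6 genes of lowest p, among those in the promoter table, in the comparison of starved cells between the experiments, 5′ to 3′ on the strand of the gene, from RefSeq on GRCh38.p14. They lie at chr16:85688955-85689104 (GINS2, minus strand), chr7:100101398-100101547 (MCM7, minus), chr11:65261812-65261961 (POLA2, plus), chr3:127598261-127598410 (MCM2, plus), chr22:19479770-19479919 (CDC45, plus) and chr12:109097447-109097596 (UNG, plus). Capitals mark any match to the E2F words TTTCCCGC, TTTGGCGC, TTTGCCGC or TTTCGCGC on either strand.
GINS2: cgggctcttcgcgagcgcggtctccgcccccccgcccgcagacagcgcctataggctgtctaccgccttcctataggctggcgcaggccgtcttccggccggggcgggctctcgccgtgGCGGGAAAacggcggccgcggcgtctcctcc
MCM7: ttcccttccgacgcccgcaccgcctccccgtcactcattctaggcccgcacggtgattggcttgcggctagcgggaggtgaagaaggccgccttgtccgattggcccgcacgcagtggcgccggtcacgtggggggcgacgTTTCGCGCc
POLA2: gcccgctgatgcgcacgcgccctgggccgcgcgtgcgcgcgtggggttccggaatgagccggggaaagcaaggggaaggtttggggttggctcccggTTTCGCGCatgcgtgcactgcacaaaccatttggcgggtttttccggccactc
MCM2: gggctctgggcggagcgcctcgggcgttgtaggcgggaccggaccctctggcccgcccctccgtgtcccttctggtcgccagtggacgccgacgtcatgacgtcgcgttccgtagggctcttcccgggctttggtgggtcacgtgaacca
CDC45: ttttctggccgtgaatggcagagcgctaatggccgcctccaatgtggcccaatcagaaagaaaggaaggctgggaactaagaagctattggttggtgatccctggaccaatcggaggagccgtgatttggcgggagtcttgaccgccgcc
UNG: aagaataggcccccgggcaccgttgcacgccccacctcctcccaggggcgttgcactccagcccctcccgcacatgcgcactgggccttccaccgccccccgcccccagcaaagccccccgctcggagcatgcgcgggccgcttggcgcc
GINS2, MCM7 and POLA2 each held 1 E2F word in this stretch, and MCM2, CDC45 and UNG held none. The promoter table had 33 of the 39 genes, all but MCM4, MCM5, GINS4, RPA2, RPA3 and CCNE2. Over 250 bases upstream, 12 of the 33 (36.4%) held an E2F word: CDT1, MCM3, MCM6, MCM7, GINS2, POLA2, PCNA, RFC3, LIG1, TYMS, E2F1 and CDC25A. The same words were in 4.13% of the 9593 promoters of measured genes and in 2.79% of all 27305 in the table. A CCAAT box (CCAAT) was in 18 of the 33 (54.5%) against 35.8% of measured genes, a GC box (GGGCGG) in 23 (69.7%) against 60.5%, and the CHR word TTTGAA, which is common at G2/M promoters, in 1 (3.03%, RRM1) against 9.66%. A match describes the letters of the window and is not a binding site.

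The RAB25 probe set followed the labels: its log2 signal was 5.26 ± 0.25 (SD, n = 12) in the pcDNA arrays and 8.65 ± 0.30 (SD, n = 12) in the Rab25 arrays, with no overlap (the lowest Rab25 array was at 8.18). Array medians lay between 6.92 and 7.23. PAX8 (mean 11.86), KRT8 (12.75) and KRT18 (13.99), markers of ovarian carcinoma and epithelium, gave high signals, while MUC16 (4.94), CDH1 (5.50) and, in the 22 arrays other than Rab25 with FBS, KRT19 and EPCAM (at most 5.41 and 5.29) did not. Both Rab25 arrays with FBS stood apart. Of 6 stromal markers 3 were above all other 22 arrays in each of them. COL1A2 was at 11.73 in experiment 1 and 9.54 in experiment 2 against at most 6.91 elsewhere. DCN, PDGFRB and THY1 were not above the other arrays. DCN was high throughout, at 11.81 and 11.84 here and at 11.55 to 12.55 in the other 22 arrays. The mean of the 6 stromal markers was 10.07 and 8.80 against 6.78 to 7.40. Leukocyte markers above the other arrays numbered 5 and 4 of 6, and breast epithelium markers 5 and 2 of 7 (SCGB2A2 8.57 and 8.84 against at most 5.90). For adipocyte markers it was 1 and 2 of 5, for red blood cell markers 2 and 1 of 2, and for endothelial markers 1 and 0 of 3. Some margins were small and near background, where the liver gene APOA1 reached 5.92 on the other 22 arrays. CD68 read 5.55 and 5.64 against at most 5.53, and PTPRC 5.68 and 5.70 against at most 5.56. HLA-DRA was raised in experiment 1 (8.53) but not in experiment 2 (6.11 against at most 6.19). CDH5, of the endothelial list, was high on the other 22 arrays (9.69 to 11.84). The share of all genes above the other 22 arrays was not counted. KRT19 (9.95) and EPCAM (8.49) were raised in the Rab25 FBS array of experiment 1. The counts for FBS, the lines and the experiments that use these 2 arrays are given with and without both. For the FBS response in Rab25 and its difference between the lines no FBS array of Rab25 is then left.

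The 39 genes set the arrays of experiment 1 without FBS apart from all other arrays. Each gene was set against its own mean over the 24 arrays, and the median deviation of the 39 was then taken per array. In experiment 1 it was -0.77 to -0.57 log2 in the 5 pcDNA arrays without FBS and -0.49 to -0.19 in the 5 Rab25 arrays without FBS. With FBS it was 0.34 (pcDNA) and 0.22 (Rab25). In experiment 2 all 12 arrays, starved cells included, lay between 0.26 and 0.48. Over all genes the median deviation stayed between -0.08 and 0.02 on every array. Mean log2 signals of the 39 ran from 7.14 (CDT1) to 13.02 (TYMS), and because probe sets differ in response these are not compared between genes.

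**Figure D1:**
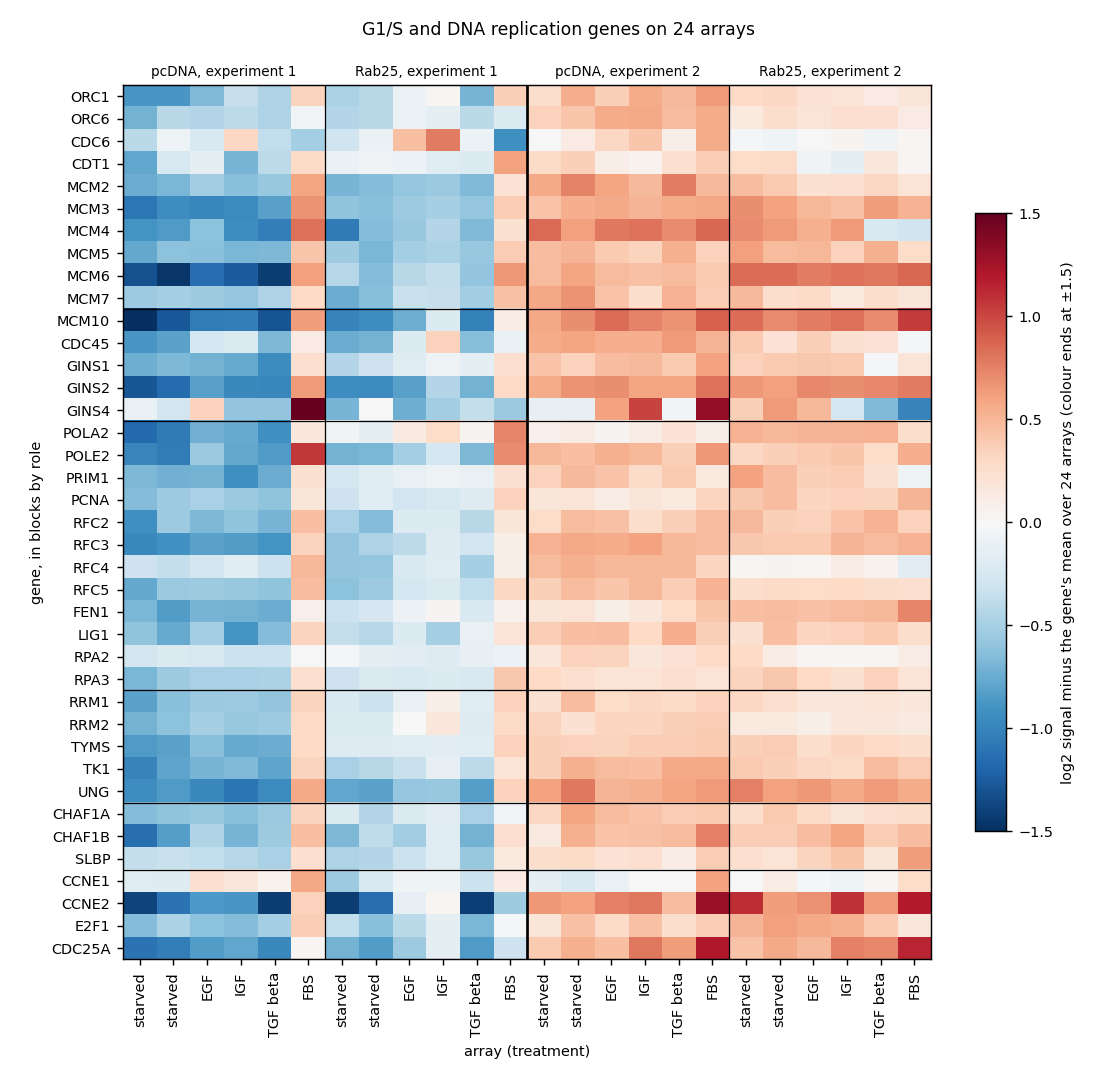
Deviation of each of the 39 genes (rows, by role) from its own mean over the 24 arrays (columns), in log2 units, by experiment, line and treatment. In experiment 1 the 10 arrays without FBS are low for most genes and the 2 FBS arrays are not, and in experiment 2 all 12 arrays are high for most genes.

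Starved cells differed between the experiments in nearly all of these genes. GINS2, a subunit of the GINS complex, had log2 signals of 8.52 and 8.65 in the starved pcDNA arrays of experiment 1 and of 8.88 and 8.86 in the Rab25 arrays. In experiment 2 they were 10.36 and 10.48 (pcDNA) and 10.46 and 10.42 (Rab25). The ranges did not overlap, and GINS2 was higher in experiment 2 by 1.70 log2 (SE 0.08, 3.26-fold, limma adjusted p = 1.14e-07). UNG, which removes uracil from DNA, read 9.05, 9.14, 9.21 and 9.18 in experiment 1 and 10.59, 10.78, 10.74 and 10.59 in experiment 2. Its difference was 1.53 (SE 0.07, limma adjusted p = 1.70e-07), with a wide gap between the ranges. The helicase subunit MCM5 read 9.20, 9.36, 9.44 and 9.29 against 10.43, 10.48, 10.59 and 10.45, a difference of 1.16 (SE 0.06, limma adjusted p = 1.70e-07). MCM2, of the same ring, read 10.34, 10.40, 10.38 and 10.43 against 11.65, 11.83, 11.55 and 11.47, a difference of 1.24 (SE 0.06, limma adjusted p = 1.81e-07). All 4 genes were high in every starved array of experiment 2, in both lines.

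Counted over the list, 37 of the 39 genes were higher in starved cells of experiment 2 and 0 were lower at an adjusted p under 0.05, where 16.1% of all genes were higher and 33.9% differed in either direction. The median difference was 0.96 for the 39 genes and 0.01 for all genes, and fewer expressing cells and less RNA per cell cannot be told apart in RNA of whole cultures. For 37 genes, all but GINS4 and CCNE1, the 4 starved arrays of experiment 2 lay above the 4 of experiment 1, which held for 11.8% of all genes. For starved pcDNA cells the fit called 37 genes higher (15.5% of all genes higher), with a median of 1.18. For starved Rab25 cells it called 37 higher and 0 lower (13% of all genes higher, 14.2% lower and 27.2% in either direction), with a median of 0.76. The fit takes the line by experiment effect as shared by all treatments. The values of each line therefore do not rest on its starved arrays alone. The actin 3′ to 5′ difference, a sign of RNA quality, was 0.76 to 1.17 log2 in the starved arrays of experiment 1 and 0.68 to 0.93 in those of experiment 2, and its part in the result was not tested.

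By role, 9 of the 10 licensing genes were higher in starved cells of experiment 2, with a median of 1.13. The helicase subunits were among the largest, MCM6 at 1.65 (SE 0.11) and MCM4 at 1.57 (SE 0.13), beside MCM3 at 1.38 (SE 0.08) and MCM7 at 1.10 (SE 0.06). CDC6, the loader of the helicase, was the exception in its role at 0.23 (SE 0.11, limma adjusted p = 0.146), although its 4 starved arrays of experiment 2 (10.86 to 11.05) were just above those of experiment 1 (10.52 to 10.85). Among the helicase activators 4 of 5 were higher, led by MCM10 at 1.88 (SE 0.12), and GINS4 was at 0.46 (SE 0.25, limma adjusted p = 0.203) with overlapping arrays. All 12 genes of the synthesis machinery were higher, from RPA2, a single-strand binding subunit, at 0.40 (SE 0.06) to POLE2, a polymerase epsilon subunit, at 1.26 (SE 0.08). All 5 genes of nucleotide supply were higher, from RRM2 at 0.66 (SE 0.07) to UNG, with thymidine kinase TK1 at 1.09 (SE 0.08). The 3 chromatin genes were higher, from SLBP at 0.65 to CHAF1B at 1.10. The G1/S regulators spanned the whole range of the list: the E-type cyclin CCNE2 had the largest difference, 2.01 (SE 0.17, 4.02-fold), the phosphatase CDC25A stood at 1.40 (SE 0.09) and the factor E2F1 at 0.97 (SE 0.09), and the other E-type cyclin, CCNE1, had the smallest, 0.22 (SE 0.07, limma adjusted p = 0.0271).

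**Figure D2:**
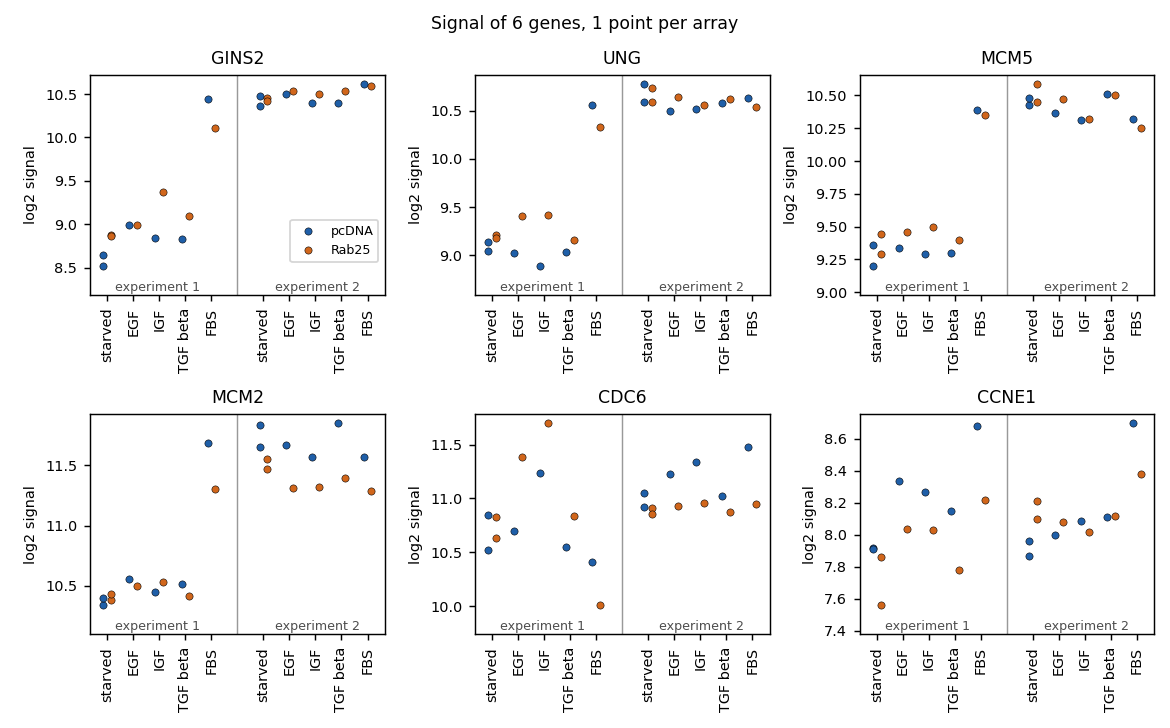
Log2 signal of GINS2, UNG, MCM5, MCM2, CDC6 and CCNE1 on each of the 24 arrays, by treatment, experiment and line. GINS2, UNG, MCM5 and MCM2 are low in experiment 1 except with FBS and high throughout experiment 2, whereas CDC6 peaks with IGF in experiment 1 (11.24 and 11.70) and CCNE1 is highest with FBS within each line and experiment.

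The separation reached beyond starved cells. For 32 of the 39 genes every one of the 12 arrays of experiment 2 was above every one of the 10 arrays of experiment 1 without FBS, against 4.78% of all genes. MCM5 ranged from 9.20 to 9.50 (median 9.35) in the 10 arrays and from 10.25 to 10.59 (median 10.44) in the 12. The thymidylate synthase TYMS ranged from 12.17 to 12.86 (median 12.60) and from 13.28 to 13.41 (median 13.37). The 7 genes with overlap were CDC6, CDT1, CDC45, GINS4, POLA2, RRM2 and CCNE1.

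In experiment 1 FBS raised 37 of the 39 genes over starved cells of the same experiment, as a mean of the lines. It lowered CDC6 and left RPA2 uncalled. Among the 37, GINS4 rose in pcDNA only, from 7.10 and 6.93 to 9.09, while Rab25 read 6.51 and 7.20 starved and 6.65 with FBS. POLE2 read 7.40 and 7.35 in starved pcDNA cells and 9.46 with FBS, and 7.68 and 7.71 in starved Rab25 cells and 9.10 with FBS. It rose by 1.74 log2 (SE 0.10, 3.35-fold, limma adjusted p = 2.17e-07). POLA2, a subunit of the polymerase alpha primase, went from 7.92 and 8.02 to 9.24 in pcDNA and from 9.03 and 8.95 to 9.82 in Rab25, a rise of 1.05 (SE 0.06, limma adjusted p = 3.00e-07). GINS2 reached 10.44 (pcDNA) and 10.11 (Rab25) with FBS, a rise of 1.55 (SE 0.09, limma adjusted p = 3.10e-07). MCM5 reached 10.39 and 10.35, a rise of 1.05. Each of these 4 genes was above all starved arrays of experiment 1 in both FBS arrays.

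At an adjusted p under 0.05 the 37 genes that rose compare with 18.2% of all genes, and 36.6% of all genes changed in either direction. The median change was 0.83 for the 39 genes and -0.02 for all genes. Both FBS arrays lay above the 4 starved arrays of experiment 1 for 36 genes, all but CDC6, GINS4 and RPA2, and the same held for 18.8% of all genes. The licensing genes had a median of 1.02, with MCM6 at 1.60, the helicase activators 0.94, with MCM10 at 1.54 (SE 0.15), the synthesis machinery 0.77, nucleotide supply 0.83, with UNG at 1.30 (SE 0.09), the chromatin genes 0.63 and the G1/S regulators 0.74, with CCNE2 at 1.17 (SE 0.21) and CCNE1 at 0.64 (SE 0.09). RPA2 was at 0.13 (SE 0.08, limma adjusted p = 0.228). CDC6 read 10.52, 10.85, 10.63 and 10.83 in the starved arrays and 10.41 (pcDNA) and 10.01 (Rab25) with FBS, and fell by 0.49 (limma adjusted p = 0.014). Without both Rab25 FBS arrays 37 genes rose and 0 fell, so CDC6 was no longer called.

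In experiment 2 FBS left most of the genes near the starved level. Of the 39 genes 4 changed, a share near the 10.9% of all genes that changed, and the median for the 39 was -0.02. CDC25A, which activates the cyclin E kinase, rose from 10.14 and 10.28 to 10.95 in pcDNA and from 10.18 and 10.32 to 10.89 in Rab25, by 0.69 (SE 0.11, limma adjusted p = 0.00181). CCNE1 rose from 7.96 and 7.87 to 8.70 in pcDNA and from 8.10 and 8.21 to 8.38 in Rab25, by 0.50 (SE 0.09, limma adjusted p = 0.00286). The FBS arrays of both genes were above the starved arrays of their own line. SLBP, which binds histone mRNA, rose by 0.25 (SE 0.06, limma adjusted p = 0.0198) and the primase subunit PRIM1 fell by 0.44 (limma adjusted p = 0.00938). Without both Rab25 FBS arrays 2 genes changed, both upward, and neither SLBP nor PRIM1 was among them. Without the pcDNA FBS array of experiment 2, 8 genes changed and CCNE1 and PRIM1 were not called, and without the Rab25 one CDC25A and SLBP were not.

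The FBS response, taken against the starved arrays of each experiment, differed between the experiments. The term for the difference in response was called for 32 of the 39 genes, against 25.9% of all genes in either direction. The term was negative, a lower value in experiment 2, for 31 and positive for CDC6 (0.77, SE 0.19). CDC6 was at -0.49 with FBS in experiment 1 and at 0.28, not called, in experiment 2. This term uses the same starved arrays as the comparison of starved cells, so the results are not independent. With FBS itself MCM5 read 10.39 and 10.35 in experiment 1 and 10.32 and 10.25 in experiment 2. The differences were -1.17 (SE 0.09, limma adjusted p = 6.94e-06) for POLA2, -1.25 (SE 0.10) for MCM5, -1.30 (SE 0.11) for MCM2, -1.19 (SE 0.11) for MCM7 and, the largest, -1.81 (SE 0.23) for MCM4. The genes without a called difference were ORC6, GINS4, FEN1, RPA2, CCNE1, CCNE2 and CDC25A. For CDC25A the response was 0.78 (SE 0.11) in experiment 1 and 0.69 (SE 0.11) in experiment 2, a difference of -0.09 (SE 0.15, limma adjusted p = 0.741). An F test over the differences of all 4 treatments called 30 of the 39 genes, against 22.5% of all genes, and 28 without both Rab25 FBS arrays. Without both Rab25 FBS arrays the difference in FBS response was called for 33 genes, all with the smaller response in experiment 2.

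**Figure D3:**
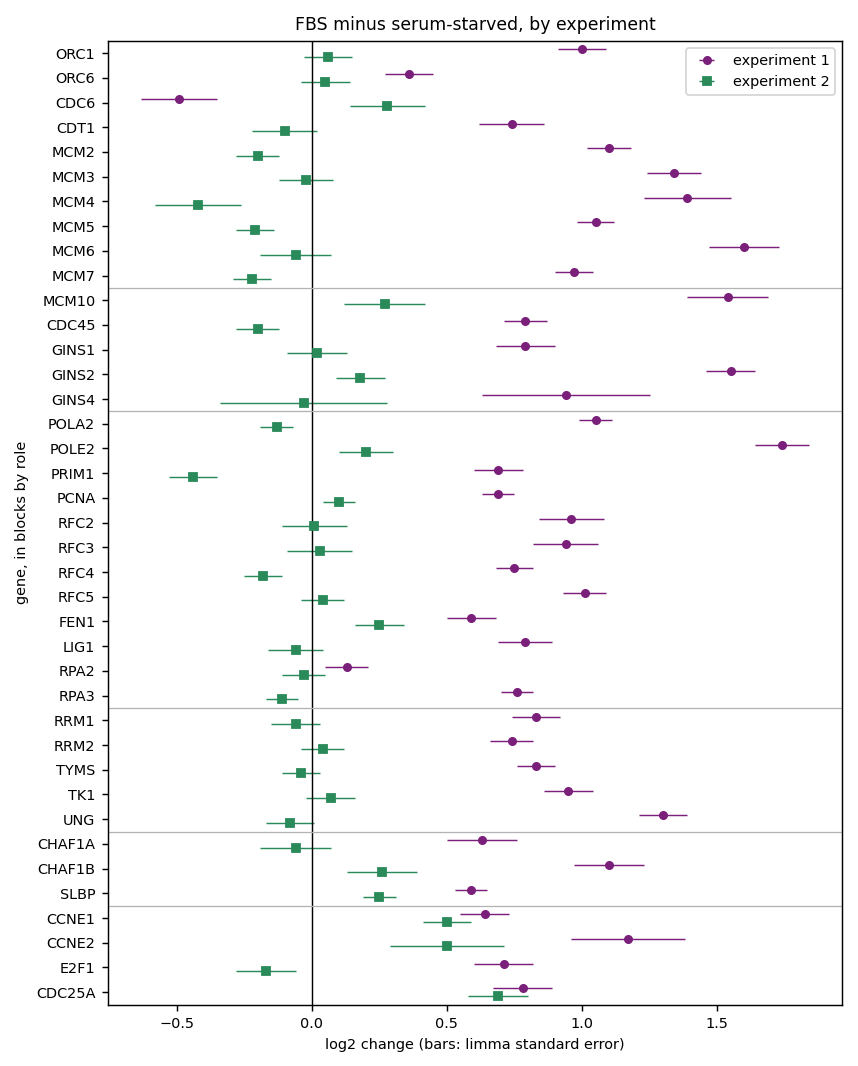
Log2 change with FBS against starved cells for each of the 39 genes, with limma's SE, in experiment 1 and in experiment 2. In experiment 1 POLE2 is highest at 1.74 and CDC6 lowest at -0.49, and in experiment 2 the values lie between -0.44 (PRIM1) and 0.69 (CDC25A).

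FBS cells of experiment 1 were also set against starved cells of experiment 2. This comparison was added after the values were seen. Here 8 of the 39 genes differed, against 25.9% of all genes, and the median was -0.12. POLE2 (0.48, SE 0.10) and CCNE1 (0.41, SE 0.09) were higher with FBS in experiment 1. ORC6 (-0.42), CDC6 (-0.72), CDC45 (-0.43), RPA2 (-0.27), CCNE2 (-0.84, SE 0.21) and CDC25A (-0.62, SE 0.11) were lower. The count was 8 without both Rab25 FBS arrays, 18 without the pcDNA FBS array of experiment 1 and 2 without the Rab25 array of experiment 1 alone. CDC25A, CDC6 and CDC45 lost their calls without this Rab25 array, and POLE2 without the pcDNA array.

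Averaged over both experiments, FBS raised 17 of the 39 genes and lowered 0, against 6.43% of all genes higher and 17.2% in either direction, with a median of 0.42. CDC25A rose by 0.74 (SE 0.09, limma adjusted p = 8.90e-05), SLBP by 0.42 (SE 0.07), CCNE1 by 0.57 (SE 0.10) and the flap endonuclease FEN1 by 0.42 (SE 0.08). CDC25A, CCNE1 and SLBP are the 3 genes called as risen in each experiment. In experiment 2 each of them lost its call without 1 FBS array of that experiment. In pcDNA 11 genes rose and 0 fell, against 2.31% of all genes higher, 4.44% lower and 6.75% in either direction. In Rab25 2 genes rose, CDC25A (0.55, SE 0.13) and SLBP (0.49, SE 0.09), and 0 fell, against 2.64% of all genes higher, 5.08% lower and 7.72% in either direction. A fit without the experiment term called 1 gene for FBS, 1 in pcDNA and 0 in Rab25. Without both Rab25 FBS arrays 16 genes rose with FBS over both experiments, and 16 in pcDNA. The count for FBS over both lines was 4 and 9 without the pcDNA or the Rab25 FBS array of experiment 1, 30 and 32 without those of experiment 2, and 11 without the first starved pcDNA array of experiment 1. In pcDNA it was 1 and 28 without its FBS array of experiment 1 or 2, and 6 without either of its starved arrays of experiment 1. In Rab25 it was 1 and 13 without its FBS array of experiment 1 or 2, and 5 without either pcDNA FBS array.

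The FBS response differed between the lines in 1 gene, GINS4, against 0.067% of all genes lower and 0.209% in either direction. In pcDNA it read 7.10, 6.93, 7.08 and 7.08 in starved cells and 9.09 and 8.53 with FBS. In Rab25 it read 6.51, 7.20, 7.56 and 7.85 in starved cells and 6.65 and 6.20 with FBS. The response was lower in Rab25 by 2.62 log2 (SE 0.51, limma adjusted p = 0.0428). The starved arrays alone spread by more than 1 log2 in Rab25, the call was lost on leaving out any of 15 single arrays, and the Rab25 side is made of the 2 arrays with raised markers of other tissues.

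IGF raised 11 of the 39 genes in experiment 1 and lowered 0, against 5.64% of all genes higher. CDC45, which joins the helicase at its activation, read 7.57 and 7.65 in starved pcDNA cells and 8.23 with IGF, and 7.71 and 7.74 in starved Rab25 cells and 8.79 with IGF. It rose by 0.84 (SE 0.08, limma adjusted p = 1.20e-04). CDC6 reached 11.24 (pcDNA) and 11.70 (Rab25) with IGF, above all starved arrays of experiment 1, and rose by 0.77. CCNE2 rose by 0.84 (SE 0.21), MCM10 by 0.55, ORC1 by 0.50 (SE 0.09), CDC25A by 0.46, GINS2 by 0.38, POLA2 by 0.37 (SE 0.06), CCNE1 by 0.34, POLE2 by 0.34 and RFC4 by 0.28. By role, 2 of 10 licensing genes, 3 of 5 helicase activators, 3 of 12 genes of the synthesis machinery, 0 of 5 of nucleotide supply and 3 of 4 G1/S regulators were called. All 5 genes of nucleotide supply were above 0, with a median of 0.24 and 3 at an unadjusted p under 0.05 in limma's test, and the roles were not tested against each other. The count was 15 without both Rab25 FBS arrays. Without the Rab25 IGF array of experiment 1 a single gene was called, without the pcDNA one 4, and without the first starved pcDNA array of experiment 1, 7. CDC45 kept its call in each of these fits.

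In experiment 2 IGF changed 0 of the 39 genes in limma's test, 5 at an unadjusted p under 0.05, and 3.24% of all genes changed. CDC45 was at -0.05 (SE 0.08) and its response differed between the experiments by -0.89 (SE 0.12, limma adjusted p = 0.003), the sole gene of the 39 so called, against 2.67% of all genes. That call was lost without the Rab25 IGF array of either experiment. The count was 3 without any single FBS array and 2 without any single TGF beta array. Over both experiments IGF raised CDC25A by 0.38 (SE 0.09, limma adjusted p = 0.0355), 1 of 39 genes against 2.71% of all genes. This count was 0 in a fit without the experiment term and in 9 of the fits that left out 1 array.

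EGF raised 1 gene in experiment 1, CDC45, from the starved values above to 8.19 (pcDNA) and 8.24 (Rab25), by 0.54 (SE 0.08, limma adjusted p = 0.02), against 0.0838% of all genes higher and 0.41% in either direction. Leaving out any of 5 single arrays ended the call: either EGF array of experiment 1, the first starved pcDNA array or either starved Rab25 array. Without any single FBS array the count was 3. Another 12 genes had an unadjusted p under 0.05 in experiment 1. CCNE2, at 6.43, 6.71, 6.40 and 6.69 in the starved arrays, read 6.96 (pcDNA) and 7.70 (Rab25) with EGF, 0.77 higher (SE 0.21) but not called (limma adjusted p = 0.14). In experiment 2 EGF changed 0 genes (1 at an unadjusted p under 0.05, 1.17% of all genes called), and over both experiments 0 (0 at an unadjusted p under 0.05, 0% of all genes called).

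TGF beta changed 0 of the 39 genes over both experiments, where limma called 1.6% of all genes (0.846% higher and 0.754% lower) and 0 of the 39 had an unadjusted p under 0.05. It changed 0 in experiment 1 (2 at an unadjusted p under 0.05, 1.94% of all genes) and 0 in experiment 2 (1 at an unadjusted p under 0.05, 3.84% of all genes). The medians were 0.05 and -0.02. The gene of lowest p over both experiments, SLBP, was at -0.12 (SE 0.07, 95% interval -0.26 to 0.02). In experiment 2 the gene of lowest p, MCM4, was at -0.46 (SE 0.16, limma adjusted p = 0.185) and at 0.03 without the Rab25 TGF beta array of that experiment. Without the pcDNA one it was at -0.95 and was 1 of 2 genes called. The responses to EGF, IGF and TGF beta differed between the lines in 0 of the 39 genes by limma, with 0 at an unadjusted p under 0.05 and 0% of all genes called in each. All treatments were compared with the same starved arrays, so their values are not independent of each other.

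Between the lines, 6 of the 39 genes differed over all conditions, against 24.7% of all genes. FEN1 was higher in Rab25 by 0.38 (SE 0.06, limma adjusted p = 1.08e-04), POLA2 by 0.62 (SE 0.13, limma adjusted p = 0.00173), PCNA by 0.25 (SE 0.06) and MCM6 by 0.51 (SE 0.17), while GINS4 (-0.71, SE 0.18) and RFC4 (-0.30, SE 0.10) were lower. With both Rab25 FBS arrays left out 5 genes differed and GINS4 was not called (-0.29, limma adjusted p = 0.287). Among starved arrays GINS4 was at 0.23 (SE 0.29), on the other side of 0. POLA2 ranged from 7.92 to 9.24 (median 8.25) in the 6 pcDNA arrays of experiment 1 and from 8.95 to 9.82 (median 9.17) in the 6 Rab25 arrays. In experiment 2 it ranged from 9.13 to 9.30 (median 9.19) and from 9.35 to 9.61 (median 9.60), with no overlap. FEN1 ranged from 10.71 to 11.62 (median 10.85) and from 11.22 to 11.61 (median 11.39) in experiment 1, and from 11.63 to 11.96 (median 11.74) and from 11.98 to 12.28 (median 12.02) in experiment 2. For POLA2, FEN1 and MCM6 all 6 Rab25 arrays of experiment 2 were above all 6 pcDNA arrays, which held for 4.19% of all genes. No gene of the 39 had this pattern in experiment 1 (1.76% of all genes), where the pcDNA FBS array overlapped the Rab25 arrays. Among starved arrays POLA2 (0.71, SE 0.21) and FEN1 (0.37, SE 0.10) were higher in Rab25, against 5.56% of all genes higher and 14.8% in either direction. POLA2 lost this call without any 1 of 6 starved arrays, and FEN1 without the second starved pcDNA array of experiment 1. A fit without the experiment term called 2 genes over all conditions and 0 among starved arrays.

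Within experiment 1 most of the genes that differed between the lines were higher in Rab25. There 17 genes were higher and 3 lower, against 11.7% of all genes higher and 28.3% in either direction, and the median difference was 0.19. All 5 genes of nucleotide supply were higher, with TYMS at 0.46 (SE 0.05), RRM2 at 0.40 (SE 0.06), RRM1 at 0.39 (SE 0.06), TK1 at 0.33 (SE 0.06) and UNG at 0.18 (SE 0.06). The synthesis machinery had 7 of 12 higher, led by POLA2 at 0.90 (SE 0.04), and RFC4 lower (-0.16). The licensing genes had 4 of 10 higher (ORC1, CDT1, MCM3 and MCM6), the helicase activators had GINS1 higher (0.44) and GINS4 lower (-0.74), and the G1/S regulators had CCNE1 lower (-0.33, SE 0.06). Without both Rab25 FBS arrays 25 genes were higher and 1 was lower. TYMS read 12.17, 12.22, 12.39, 12.26 and 12.28 in the pcDNA arrays without FBS and 12.82, 12.82, 12.84, 12.86 and 12.84 in the Rab25 arrays without FBS, in the order starved (2 arrays), EGF, IGF and TGF beta. With FBS it read 13.32 and 13.36. The 2 lines were thus apart on the arrays without FBS and close with FBS. A median over the 3 TYMS probe sets turned this difference to -0.12 (limma adjusted p = 0.559), and both of its other probe sets have lower means.

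Within experiment 2, 4 genes were higher in Rab25 (POLA2, MCM6, FEN1 and PCNA) and 11 were lower, against 26.2% of all genes in either direction, with a median of -0.09. RFC4, a clamp loader subunit, was lower by 0.44 log2 (SE 0.04), with 11.18 to 11.45 in Rab25 against 11.66 to 11.87 in pcDNA. The others were ORC1 (-0.28), ORC6 (-0.30), MCM2 (-0.32), MCM4 (-0.48), MCM7 (-0.18), CDC45 (-0.34), GINS4 (-0.67), RFC5 (-0.16), RPA2 (-0.17) and RRM2 (-0.19). MCM4 was lowest in the Rab25 arrays with TGF beta (10.88) and FBS (10.81), and its other 4 Rab25 arrays (11.64 to 11.81) overlapped the pcDNA arrays (11.72 to 11.97). GINS4 was higher in the starved Rab25 arrays of this experiment (7.56 and 7.85) than in the pcDNA ones (7.08 and 7.08). Leaving out both Rab25 FBS arrays gave 4 genes higher and 8 lower. The count was 9 on leaving out any of the EGF, IGF or TGF beta arrays of experiment 2 in either line.

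The difference between the lines changed from experiment 1 to experiment 2 in 16 of the 39 genes, against 4.66% of all genes. It became lower in 15 and higher in CCNE1 (0.32, SE 0.08, limma adjusted p = 0.0426). POLA2 changed by -0.55 (SE 0.06, limma adjusted p = 7.98e-04), TYMS by -0.53 (SE 0.07, limma adjusted p = 0.00121), RRM2 by -0.59 (SE 0.08, limma adjusted p = 0.00137) and RRM1 by -0.50 (SE 0.08, limma adjusted p = 0.00525). RRM2, the small subunit of ribonucleotide reductase, ranged from 12.13 to 13.14 (median 12.28) in pcDNA and from 12.62 to 13.13 (median 12.74) in Rab25 in experiment 1. In experiment 2 the order was the other way, from 13.07 to 13.22 (median 13.17) in pcDNA and from 12.92 to 13.01 (median 12.99) in Rab25. Nucleotide supply had 4 of 5 genes lower, the synthesis machinery 6 of 12, licensing 3 of 10 and helicase activation 2 of 5. The count was 24 without both Rab25 FBS arrays or any single FBS array, and 9 or 10 on leaving out 1 of 13 arrays, among them each EGF, IGF and TGF beta array, and a median over the probe sets turned the value of TYMS to 0.09. This comparison was chosen after the values were seen.

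**Figure D4:**
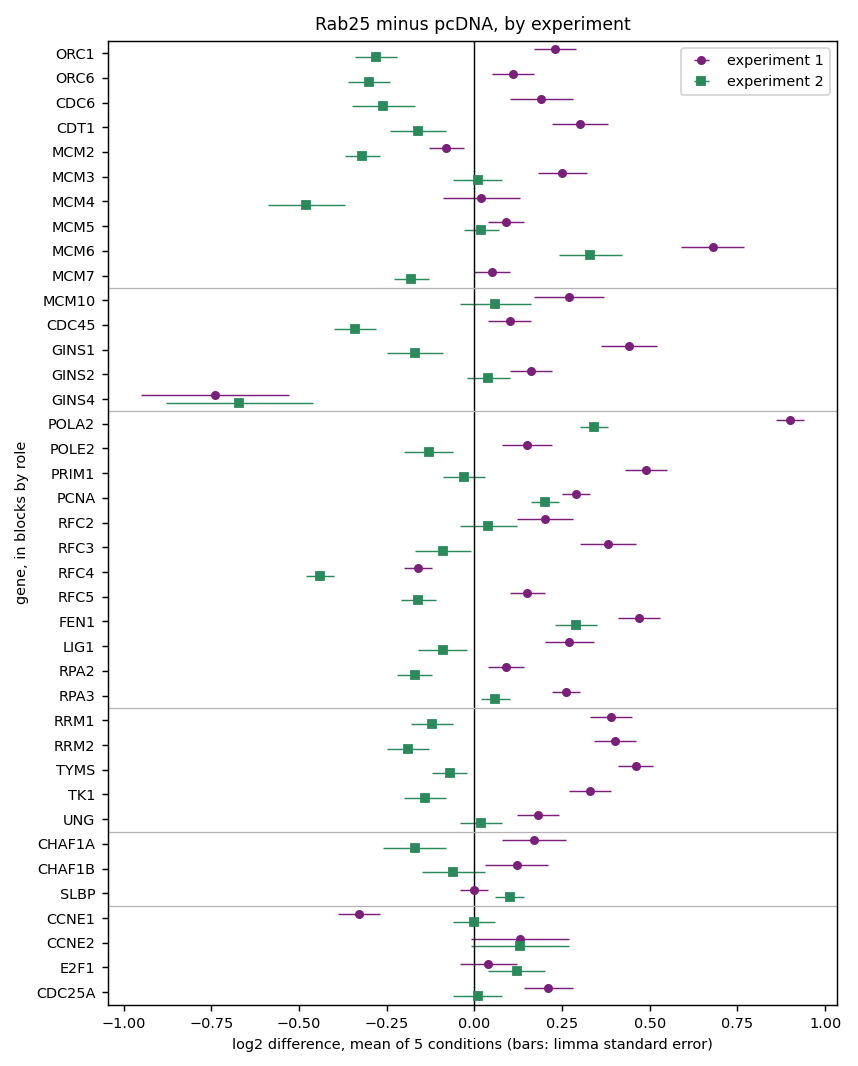
Rab25 minus pcDNA in log2 units, with limma's SE, for each of the 39 genes in experiment 1 and in experiment 2. In experiment 1 most values are above 0, with POLA2 at 0.90, and in experiment 2 most lie at or below 0, with POLA2 still at 0.34.

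Other genes of replication and the G1/S step, 48 of 55 listed, were counted beside the 39. In starved cells 37 of the 48 were higher and 1 lower in experiment 2, with a median of 0.70. Of all genes 16.1% were higher and 17.8% lower there. DSCC1 (1.48, SE 0.09), part of an alternative clamp loader, RBL1 (1.29, SE 0.08), of the RB family, CDC7 (1.49, SE 0.10), the kinase of the loaded helicase, and DNMT1 (0.77, SE 0.05), the maintenance DNA methyltransferase, had the lowest p. With FBS in experiment 1, 34 rose and 2 fell, among them DNMT1 (1.04, SE 0.06), SKP2 (1.46, SE 0.09), which targets the inhibitor p27 for degradation, TIMELESS (1.05, SE 0.08) and MSH6 (0.94, SE 0.07). Of all genes 18.2% rose and 18.4% fell there. In experiment 2 FBS raised 2 of the 48 and lowered 2, against 3.85% and 7.06% of all genes. The FBS response was lower in experiment 2 for 31 and higher for 1, against 15% and 10.9% of all genes. Rab25 was higher for 20 and lower for 3 in experiment 1, against 11.7% and 16.6% of all genes. In experiment 2 it was higher for 5 of the 48 and lower for 11, against 9.61% and 16.6% of all genes. The difference between the lines became lower in 16, against 3.39% of all genes.

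Genes of G2 and mitosis, 29 of 30 listed, were also higher in starved cells of experiment 2 (29 of 29, median 0.71) and with FBS in experiment 1 (29 of 29, median 0.86). Of all genes 16.1% were higher in starved cells of experiment 2 and 18.2% with FBS in experiment 1. The change in the line difference was -0.72 at the median, with 29 of 29 lower, beside -0.28 and 15 of 39 lower for the G1/S and replication genes. The line difference became lower in 3.39% of all genes. With IGF in experiment 1, 0 of the 29 rose and 5 fell (median -0.18), beside 11 of 39 risen and 0 fallen (median 0.19). Of all genes 5.64% rose and 7.55% fell with IGF in experiment 1. These counts describe the lists and were not tested against each other.

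**Figure D5:**
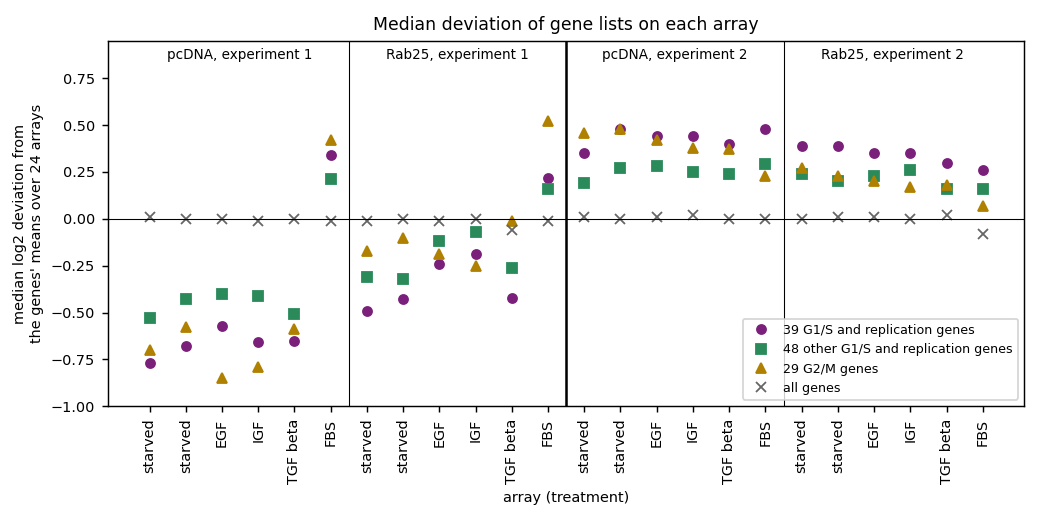
Median deviation from each gene's mean over the 24 arrays, in log2 units, per array, for the 39 genes, the 48 other replication and G1/S genes, the 29 G2/M genes and all genes. The 39 genes lie between -0.77 and -0.19 in experiment 1 without FBS and between 0.26 and 0.48 in experiment 2. The G2/M genes reach -0.01 in experiment 1 without FBS and are as low as 0.07 in experiment 2, and all genes stay between -0.08 and 0.02.

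Other probe sets of the same genes gave the same picture for the experiment. The 39 genes had 59 probe sets, 24 genes with a single one and 15 with several. Of the 20 probe sets not used above, 20 were higher in starved cells of experiment 2 (median 0.98), and 18 were higher with FBS in experiment 1 (median 0.86). For the difference between the lines 16 of 20 were above 0 in experiment 1 and 6 of 20 in experiment 2. The second probe set of CDC6 was at -0.08 with FBS in experiment 1, where the one used was at -0.49. The other 3 of MCM4 were at 1.27 to 1.74 there, beside 1.39. The 2 weaker probe sets of TYMS, were at 0.24 and 0.02 in the starved comparison, beside 0.87.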

How the data were processed

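Expression values per probe set, on the log2 scale, were deposited by the authors for 24 arrays. MAS5 and RMA are named per the submitters' processing notes, without version, role or order, so the background correction and normalization behind the log2 values are not given in the sources used here. Of 22930 probe sets, 524 were controls, 19415 had 1 gene symbol in the platform annotation, 125 several and 2866 none, and only those with 1 symbol were used. The probe set of highest mean stood for each of 11940 genes. The precision is limited by the number of arrays.

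Genes were fitted together with limma 3.58.1 (lmFit and eBayes) in R 4.3.3, with 10 groups of line and treatment and the experiment as a block (13 residual degrees of freedom). A further fit added treatment by experiment and line by experiment terms (8 residual degrees of freedom). Within-experiment values come from this fit. It takes the treatment by experiment effects as shared by the lines, and the line by experiment effect as shared by the treatments. Adjusted p is Benjamini-Hochberg over all genes of a comparison, called under 0.05, and errors are limma's SE. The replicate number is the labelled experiment. Deviations of same-numbered arrays correlated for all 45 pairs of groups, with r from 0.09 to 0.86 and a median of 0.66. The fit was also run on simulated data with independent noise and planted changes only. That run does not cover arrays that share deviations, as these do.

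The 39 genes and the other lists were chosen with earlier results of these data known. Any of the 39 could be named, with values for up to 4 of lowest p called in each comparison, or the 1 of lowest p where none was called. Of the other replication genes, up to 4 of lowest p per comparison were named. Genes named beyond these were chosen after their values were seen. Of the lists beside the 39, 48 of 55 replication genes and 29 of 30 G2/M genes were used, and the rest were not analysed here. Alternatives were no block, quantile normalization, median centring, array quality weights, the median over all probe sets of a gene, a filter on the lowest 40% of genes, the groups of a comparison fitted alone, no Rab25 FBS arrays, and each array left out.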

Additional observations from a re-analysis of the deposited data

Results flagged for a closer look

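The FBS response differed between the experiments by its own term in 32 of the 39 genes. This term is not independent of the comparison of starved cells, which uses the same starved arrays. The values of lowest p were -1.17 for POLA2, -1.25 for MCM5, -1.30 for MCM2 and -1.19 for MCM7, each with a smaller response in experiment 2 (limma adjusted p from 6.94e-06 to 1.47e-05).

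The difference between Rab25 and pcDNA changed between the experiments in 16 genes, led by POLA2 at -0.55, TYMS at -0.53, RRM2 at -0.59 and RRM1 at -0.50. The value of TYMS was not shared by its other probe sets.

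The IGF response of CDC45 differed between the experiments by -0.89 (limma adjusted p = 0.003). This call was lost without the Rab25 IGF array of either experiment, and 2.67% of all genes were called. The FBS response of GINS4 differed between the lines by -2.62 (limma adjusted p = 0.0428). The GINS4 call was lost in 19 other settings, most of them with a single array left out. Both Rab25 FBS arrays behind it carry raised markers of other tissues.

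In the 4 starved pcDNA arrays GINS4 had 1 array below the rest, at 6.93 against 7.08 for the nearest, a gap of 0.885 of the range where 0.829 is the limit. It was the sole case among 78 sets of 4 arrays. Each set joined arrays of both experiments, and for 37 of the 39 genes the starved arrays of the experiments did not overlap. Their range then holds the gap between the experiments, so this test could hardly flag an array in those genes.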

How the results depend on the processing

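Of 216 counts of genes called under other settings, 182 stayed within 1.5 times the count given and 34 did not, and of 768 counts with 1 array left out 679 did. Of 2301 values of named genes, 2204 kept direction and side of the threshold, 90 lost the call, 4 gained it and 3 reversed: MCM4 with TGF beta in experiment 2 (0.03 without the Rab25 TGF beta array and -0.95 without the pcDNA one), and TYMS between lines in experiment 1 (-0.12) and in the change of that difference between experiments (0.09), both with the median of its probe sets. Only 1 array per group was left in some of these fits, and that array was then assumed to vary like the other groups. The causes of these shifts were not tested.

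The replicate block, the experiment, is paired over all groups. Without this pairing the counts were 2 for the line over all conditions, 0 for the line in starved cells, 0 for IGF, 1 for FBS, 1 for FBS in pcDNA, 0 for FBS in Rab25 and 0 for the difference in FBS response between lines, and it changed no other count by over 1.5 times among those fitted. Array quality weights gave 5 for the line in starved cells, 5 for FBS, 1 for FBS in pcDNA, 0 for FBS in Rab25, 0 for its difference between lines, 4 and 17 for EGF and IGF in experiment 1, 1 for IGF in experiment 2, 4 for IGF by experiment, 2 for FBS in experiment 2 and 25 for line by experiment. Groups fitted alone gave 9 for the line in starved cells, 2 for IGF, 10 for FBS, 3 for FBS in pcDNA, 0 for FBS in Rab25 and 0 for its difference between lines. This setting was not run for the line over all conditions or for most comparisons between experiments. Without the lowest 40% of genes the counts were 0 for the difference in FBS response between lines, 3 for EGF in experiment 1, 1 for IGF in experiment 2 and 4 for IGF by experiment. Quantile normalization gave 1 for IGF in experiment 2 and 2 for IGF by experiment, median centring gave 0 for IGF, and leaving out both Rab25 FBS arrays gave 3 for EGF in experiment 1, 3 for IGF by experiment and 2 for FBS in experiment 2.

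With 1 array left out the counts ran from 4 to 8 for the line over all conditions, 0 to 3 for the line in starved cells, 0 to 2 for IGF, 4 to 32 for FBS, 1 to 28 for FBS in pcDNA, 1 to 13 for FBS in Rab25, 0 to 1 for the difference in FBS response between lines, 36 to 38 for starved cells between experiments (36 to 37 in pcDNA, 35 to 37 in Rab25), 0 to 3 for EGF and 1 to 15 for IGF in experiment 1, 0 to 3 for IGF by experiment, 0 to 2 for TGF beta in experiment 2, 33 to 38 for FBS in experiment 1, 3 to 8 for FBS in experiment 2, 29 to 33 for FBS by experiment, 2 to 18 for FBS of experiment 1 against starved cells of experiment 2, 15 to 24 for the line in experiment 1, 9 to 17 in experiment 2, 9 to 24 for line by experiment and 21 to 30 for the F test. The other comparisons stayed at 0. Comparisons of lines by experiment, of starved cells in each line and of FBS in experiment 1 with starved cells in experiment 2 were added after seeing the data.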
